A study of Mus musculus with 6 samples.

Results

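Genes of fatty acid oxidation, together with known targets of the fatty acid receptors of the PPAR family, were examined in the prostate of TRAMP mice given the compound OSU-CG5 or vehicle. The set lists 48 genes by symbol, and 45 of them had a probe set annotated to that symbol alone, out of 18193 genes measured in this way. Acsl1, Cpt1b and Ucp2 had no such probe set and were not analysed here. Each gene was read from its probe set of highest mean signal over the 6 arrays. The members were listed as a pathway, with earlier results of these data known.

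The OSU-CG5 group held 3 mice dosed by oral gavage with 100 mg/kg per day for 4 weeks, from 6 to 10 weeks of age. The vehicle group held 3 mice given vehicle over the same weeks. All 6 were intact male (C57BL/6 TRAMP x FvB) F1 mice, so both groups carry the TRAMP transgene, in which a prostate-directed probasin promoter drives the SV40 T antigens in prostate epithelium. RNA came from whole microdissected dorsal and lateral lobes 2 to 4 h after the last dose, with 1 Affymetrix array per mouse, so epithelium, stroma, muscle, vessels and immune cells were read together. OSU-CG5 is a code name for a compound that earlier work described as mimicking energy restriction, a state in which tissues turn to fatty acids as fuel.

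As background, a fatty acid enters a cell through carriers such as Cd36, is joined to coenzyme A by an acyl-CoA synthetase, and crosses into mitochondria as an acylcarnitine made by the Cpt enzymes. There a repeating cycle of dehydrogenation, hydration, a second dehydrogenation and thiolytic cleavage shortens the chain, and electrons from its opening step pass through electron transfer flavoprotein to the respiratory chain. Peroxisomes run a parallel route for very long, branched and dicarboxylic chains. PPAR alpha and PPAR delta, encoded by Ppara and Ppard, bind fatty acids and, with an RXR partner, raise many of these genes in fasted liver and in muscle.

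For most genes of the pathway the arrays of the groups overlapped. No member passed limma's test with Benjamini-Hochberg adjustment over all 45037 probe sets, and the smallest adjusted p among them was 0.143. No gene outside the set passed either, so the share called over all genes was 0.0%. At an unadjusted p under 0.05, 5 of 45 members read lower with OSU-CG5, which is 11.1%, beside 8.43% of all genes. None read higher at that threshold, beside 5.4% of all genes. The OSU-CG5 arrays lay wholly below the vehicle arrays for 6 members, beside 14.2% of all genes, and wholly above them for 1, beside 8.1% of all genes. The share of members that read lower was thus near that of all genes by either count.

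The sizes of the differences were small and mostly bounded. The median log2 difference, OSU-CG5 minus vehicle, was -0.07 over the members and -0.09 over all genes. Of the members, 29 lay below 0 (64.4%, beside 65.7% of all genes) and 16 above. The lowest was -0.67 for Acsf2 and the highest 0.42 for Ehhadh. For 43 of the 45 members the 95% interval of the difference lay within 2-fold in either direction, a property of 96.1% of all genes. For 31 it lay within 1.5-fold (68.9%, beside 66.6% of all genes). The exceptions to the wider bound were Cd36 and Fabp4, whose intervals ran from -1.58 to 0.65 and from -1.37 to 1.30.

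**Figure D1:**
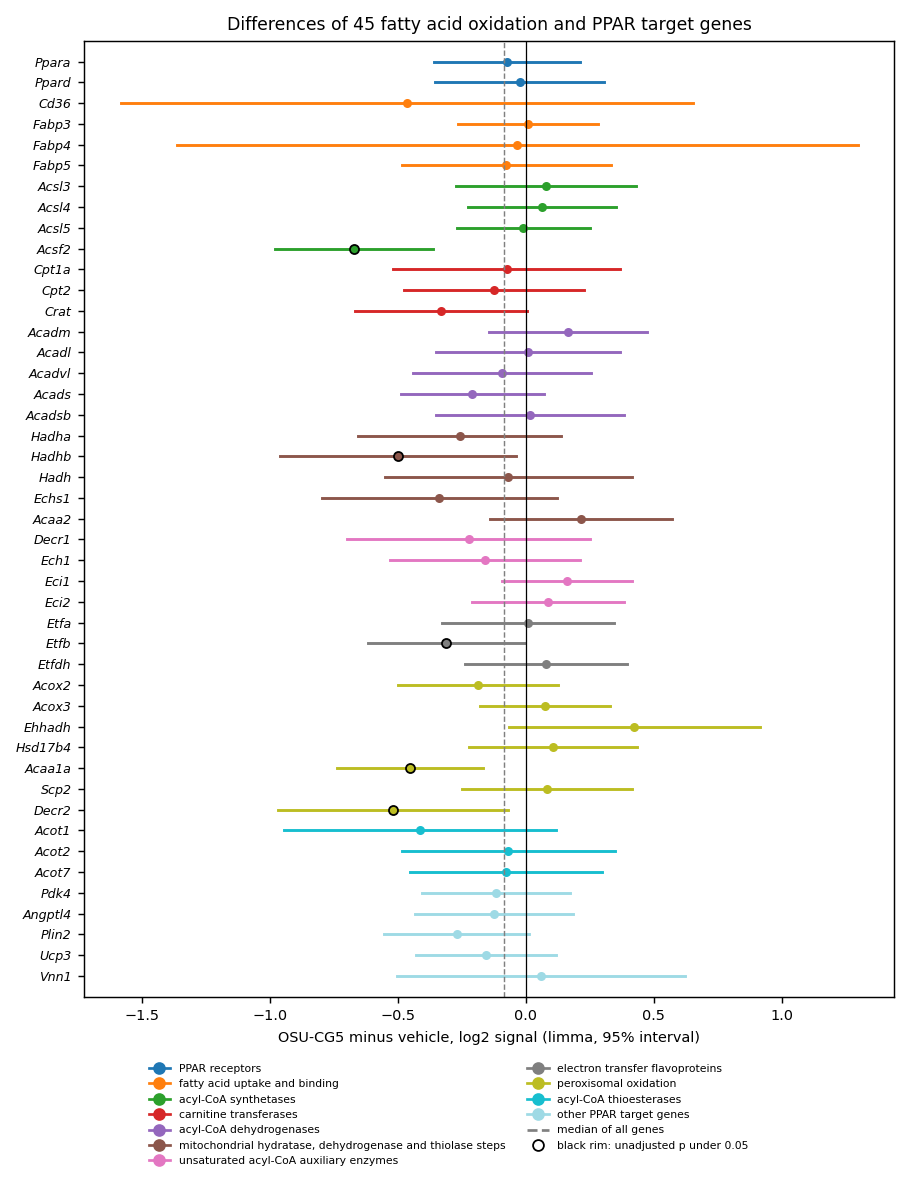
Log2 difference of each of the 45 genes (OSU-CG5 minus vehicle) with its 95% interval from limma, coloured by role. 29 points lie left of 0 (64.4%, beside 65.7% of all genes). None of the 5 rimmed points lies right of 0, and the dashed line marks the median of all genes at -0.09.

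One array differed from the rest. Over all probe sets vehicle replicate 2 had correlations of 0.966 to 0.981 with the other arrays, against 0.987 to 0.995 for every pair without it. Its mean over 5 secretory transcripts of seminal vesicle, a gland beside the prostate, was 8.07, the highest of any array. That mean ranged from 3.72 to 4.82 on the OSU-CG5 arrays and was 4.10 on vehicle replicate 1 and 5.26 on vehicle replicate 3. It also had the highest signal of all arrays for 19 of 45 members (42.2%, beside 38.4% of all genes). OSU-CG5 replicate 1 was highest for 12 members (26.7%, beside 13.3% of all genes), and OSU-CG5 replicate 2 for none. Averaged over the 45 members, the arrays ranged from 7.88 to 8.11 in OSU-CG5 mice and from 8.04 to 8.14 in vehicle mice. Without vehicle replicate 2, 4 members read lower at the unadjusted threshold (Cd36, Acsf2, Crat and Acaa1a), which is 8.89% beside 6.58% of all genes, and 2 read higher (Acaa2 and Ehhadh), which is 4.44% beside 6.07%. Acsf2 was then 1 of 32 genes past limma's adjusted threshold (adjusted p = 0.0476). The part of seminal vesicle RNA in the members' differences was not tested.

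**Figure D2:**
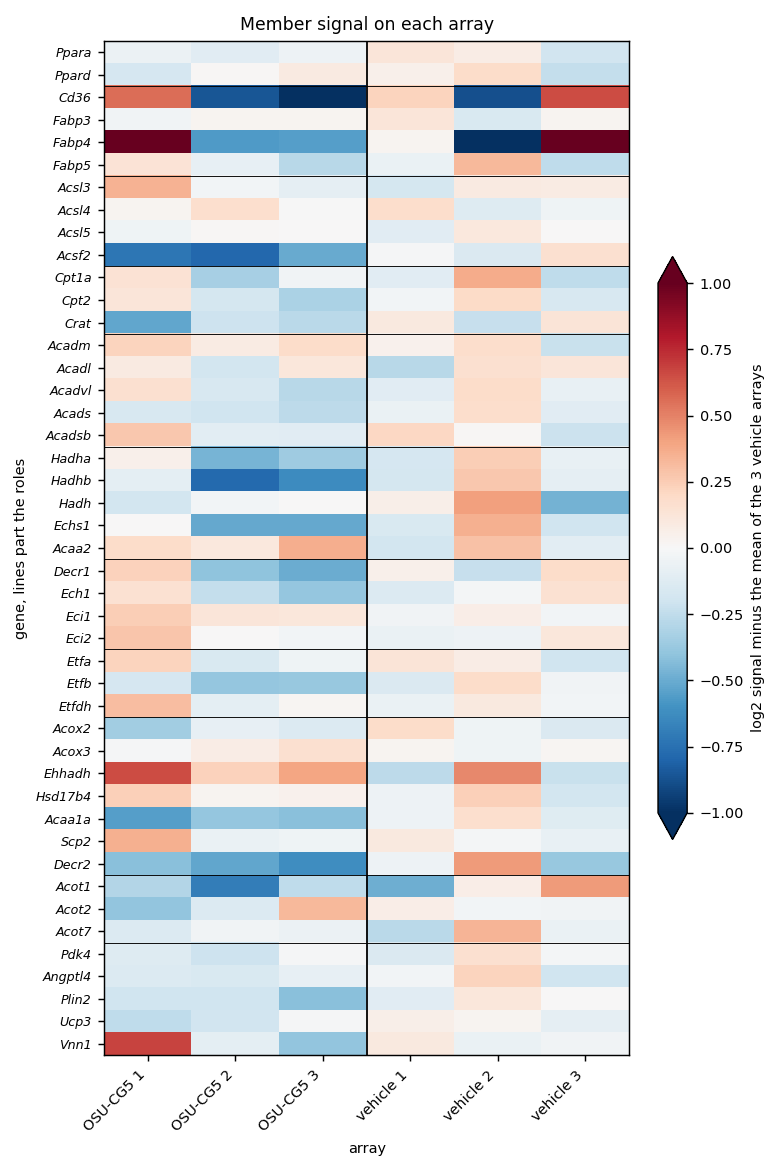
Signal of each member on each array, as log2 signal minus the mean of the 3 vehicle arrays, with black lines between roles. Acsf2 is blue on all 3 OSU-CG5 arrays, while Cd36 and Fabp4 are dark red or dark blue on single arrays of either group.

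The signal of the receptors themselves overlapped between groups in their brightest probe sets. Ppara read 5.48, 5.43 and 5.49 on the OSU-CG5 arrays, against 5.66, 5.61 and 5.35 on the vehicle arrays. Ppard read 5.42, 5.60 and 5.68 with OSU-CG5, against 5.65, 5.78 and 5.36 with vehicle. The groups overlapped for both genes, and the 95% intervals of the differences ran from -0.36 to 0.21 for Ppara and from -0.36 to 0.31 for Ppard. Their means over the 6 arrays, 5.50 and 5.58, lay near the median signal over all probe sets, 5.30 to 5.38 by array. The dimmer of the 2 Ppard probe sets differed by -0.45 (SE 0.17; limma adjusted p = 0.258), with all OSU-CG5 arrays below all vehicle arrays, so the probe sets of Ppard did not give 1 answer. The dimmest Ppara probe set differed by -0.13 (limma adjusted p = 0.558), also without overlap, and the remaining Ppara probe set by -0.07.

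Classic PPAR targets outside the oxidation cycle did not pass the test. Pdk4, a kinase that shuts pyruvate out of the citric acid cycle during fasting, read 4.71, 4.63 and 4.82 with OSU-CG5, against 4.70, 4.997 and 4.82 with vehicle. Angptl4, a secreted inhibitor of lipoprotein lipase, read 6.11, 6.09 and 6.16 with OSU-CG5, against 6.22, 6.47 and 6.05 with vehicle. The groups overlapped for both, and the 95% intervals of their log2 differences ended at 0.17 and 0.19 on the upper side. Pdk4 read below the median over all probe sets on every array (medians 5.30 to 5.38), and no detection calls were used. Whether its probe set could register a rise was not tested. Plin2, which coats lipid droplets, read 7.37, 7.36 and 7.14 with OSU-CG5, against 7.45, 7.67 and 7.57 with vehicle. Its groups did not overlap, and the log2 difference was -0.27 (SE 0.12; limma adjusted p = 0.322). Ucp3, a mitochondrial carrier of muscle, and Vnn1, a pantetheinase that releases a coenzyme A precursor, differed by -0.15 and 0.06.

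Markers of several other cell types leaned lower alongside these genes, none past the adjusted threshold, where 65.7% of all genes had a log2 difference below 0. Of all genes, 8.43% read lower at an unadjusted p under 0.05. All 12 macrophage and antigen-presenting cell markers, from cells that also make Plin2, lay below 0, and 7 of them had an unadjusted p under 0.05, with list means of 6.81 to 7.11 on OSU-CG5 arrays and 7.22 to 7.64 on vehicle arrays. All 18 skeletal muscle markers lay below 0, 12 of them at an unadjusted p under 0.05, with list means of 4.99 to 5.48 on OSU-CG5 arrays and 5.63 to 6.01 on vehicle arrays. Skeletal muscle is a main site of Ucp3, Pdk4 and Fabp3. All 11 endothelial markers lay below 0, 5 of them at an unadjusted p under 0.05, with list means of 4.88 to 5.01 on OSU-CG5 arrays and 5.11 to 5.42 on vehicle arrays. Of 8 smooth muscle markers 7 lay below 0 and 4 had an unadjusted p under 0.05, with list means of 9.25 to 9.49 on OSU-CG5 arrays and 9.49 to 9.73 on vehicle arrays. The list means of these 4 cell types did not overlap between groups. Vehicle replicate 2 set the upper end of each of these vehicle ranges, and another vehicle array the lower end. Vehicle replicate 2 was highest for 10 of 12 macrophage, 12 of 18 skeletal muscle, 10 of 11 endothelial and 4 of 8 smooth muscle markers. The share over all genes was 38.4%. A mean log2 signal of at least 6 was reached by 10 of 12 macrophage, 4 of 18 skeletal muscle, 2 of 11 endothelial and 8 of 8 smooth muscle markers. Below 0 lay 5 of 9 luminal and 3 of 4 basal epithelial markers, whose list means overlapped. In whole tissue, fewer cells of a type and less RNA per cell cannot be told apart, and the part of these cells in the members' differences was not tested. The labelled tissue was borne out by prostate secretory markers: probasin (Pbsn) read 13.8 to 13.9 with OSU-CG5 and 13.3 to 13.9 with vehicle.

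The PPAR-RXR pair binds a direct repeat of the hexamer AGGTCA with 1 base between the copies, known by the name DR1. Windows from 250 bases before to 50 bases after the gene start were available from RefSeq (build GRCm38.p6) for 37 of the measured members, as 38 windows. The motif DR1, written as AGGTCA, any base and AGGTCA again, was searched on both strands, allowing at most 2 of its 12 fixed letters to differ. It was found in 6 of the 38 member windows (15.8%), against 3.86% of 32851 windows in the whole table, and no member window held it without a mismatch, against 13 windows in the whole table. The motif and its tolerance were chosen after the expression values were seen. The set was listed partly as known PPAR targets, so its share is not independent of how the members were picked. The difference between the shares was not tested. The stretches are shown because they resemble the motif of the set's receptors in this window, and binding was not tested. Each is read 5′ to 3′ on the strand that carries the repeat, with the 13 matched bases in capitals.
Plin2 (chr4:86670264-86670292, plus strand, 219 bases before the start): tctgacttAGGTCAGGGGTCCtgaaagct
Echs1 (chr7:140116484-140116512, minus strand, 77 bases before the start): gcccgctcAGGTCACGGGTCCacccctta
Etfa (chr9:55512300-55512328, plus strand, 71 bases before the start): ttgggagtAGGGCAAAGGTAAgggtgtgc
Cd36 (chr5:17835939-17835967, plus strand, 57 bases before the start): atccaagtAAGTCAGAGGCCAgagaacca
Ucp3 (chr7:100472932-100472960, plus strand, 45 bases before the start): tcagaattAGGTTTCAGGTCAgctggtgc
Acox2 (chr14:8258810-8258838, minus strand, 15 bases after the start): gctgtcccAGGACAGAGGTGAgtcaagag
The log2 differences of these genes were -0.27 for Plin2, -0.34 for Echs1, 0.01 for Etfa, -0.47 for Cd36, -0.15 for Ucp3 and -0.19 for Acox2, and none had an unadjusted p under 0.05. A match describes letters only, and repeats further away or less alike were not searched.

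Among uptake and binding genes the arrays of a group disagreed strongly. Cd36, the fatty acid translocase, read 6.06, 4.64 and 4.40 with OSU-CG5, against 5.72, 4.62 and 6.15 with vehicle. Fabp4, a fatty acid carrier of adipocytes, endothelium and macrophages, read 6.45, 4.87 and 4.89 with OSU-CG5, against 5.46, 4.31 and 6.53 with vehicle. Both were high in OSU-CG5 replicate 1 and vehicle replicate 3 and low in vehicle replicate 2, so the groups overlapped widely. The log2 difference of Cd36 was -0.98 without OSU-CG5 replicate 1, -0.90 without vehicle replicate 2 and -0.14 without vehicle replicate 3, and its dimmer probe sets differed by 0.08 and 0.05. Adipoq, the adipocyte hormone adiponectin, read 5.17 in OSU-CG5 replicate 1, and 3.34 and 2.98 in the other OSU-CG5 mice, against 3.57, 3.63 and 3.60 in vehicle mice. Of 8 adipocyte markers, Adipoq was the only 1 with a log2 difference above 0 and the only 1 highest on OSU-CG5 replicate 1. The other 7 lay below 0. The mean of the 8 markers ranged from 4.21 to 4.45 with OSU-CG5 and from 4.31 to 4.49 with vehicle. The lowest vehicle mean, 4.31, was that of vehicle replicate 3, where Cd36 and Fabp4 were high. The part of fat tissue in the Cd36 and Fabp4 values was not tested. Fabp3, the carrier of heart and muscle, and Fabp5, the epidermal carrier, differed by 0.01 and -0.08.

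**Figure D3:**
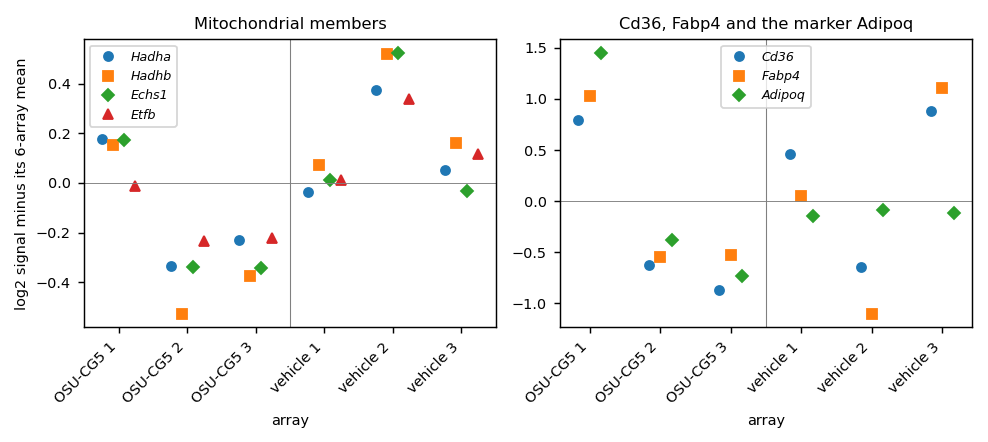
Log2 signal minus the gene's mean over 6 arrays, for 4 mitochondrial genes (left) and for Cd36, Fabp4 and the adipocyte marker Adipoq (right), with OSU-CG5 arrays left of the line. The left genes are highest on vehicle replicate 2, and Cd36 and Fabp4 are lowest or next to lowest there, with Adipoq highest on OSU-CG5 replicate 1. Adipoq was the only 1 of 8 adipocyte markers highest on that array.

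Of the enzymes that activate fatty acids, Acsf2 stood apart. Acsf2, a mitochondrial acyl-CoA synthetase family member, read 5.95, 5.89 and 6.17 with OSU-CG5, against 6.66, 6.53 and 6.83 with vehicle. The highest OSU-CG5 array lay below the lowest vehicle array, and the signal with OSU-CG5 was 0.628 of that with vehicle (log2 difference -0.67, SE 0.13; limma adjusted p = 0.143). The gene had an unadjusted p under 0.05 in 17 of 17 alternative settings and passed the adjusted threshold in 2 of them, without vehicle replicate 2 and with array weights (limma adjusted p = 0.0397). These settings reuse the same arrays and are not independent of each other. The long-chain synthetases Acsl3, Acsl4 and Acsl5 differed by 0.08, 0.06 and -0.01.

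The carnitine steps overlapped between groups in their brightest probe sets. Cpt1a, the outer-membrane transferase that sets the rate of mitochondrial oxidation, read 8.82, 8.34 and 8.64 with OSU-CG5, against 8.56, 9.04 and 8.42 with vehicle. Its 95% interval ran from -0.52 to 0.37, and its 2 other probe sets differed by -0.12 and -0.16. Cpt2, the inner-membrane transferase, differed by -0.12. Crat, which moves acetyl groups on and off carnitine, read 7.09, 7.40 and 7.34 with OSU-CG5, against 7.70, 7.38 and 7.74 with vehicle (log2 difference -0.33, SE 0.15; limma adjusted p = 0.307). Only vehicle replicate 2 lay within the OSU-CG5 range of Crat, and without it the difference was -0.45 (limma adjusted p = 0.168). A dimmer Crat probe set differed by -0.25, with all OSU-CG5 arrays below all vehicle arrays, and the dimmest by 0.09.

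The acyl-CoA dehydrogenases that open the cycle spanned a narrow range, from -0.21 for Acads to 0.16 for Acadm. Acads, the short-chain enzyme, read 6.59, 6.55 and 6.49 with OSU-CG5, against 6.69, 6.93 and 6.64 with vehicle. Its groups did not overlap, though by a margin of only hundredths of a log2 unit at the nearest arrays, and its log2 difference was -0.12 without vehicle replicate 2. Acadm, the medium-chain enzyme, read 9.70, 9.56 and 9.66 with OSU-CG5, against 9.52, 9.66 and 9.26 with vehicle, and the groups overlapped. Acadl, Acadvl and the branched-chain enzyme Acadsb differed by 0.01, -0.09 and 0.02.

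The later mitochondrial steps held the lower readings of the cycle. Hadhb, the beta subunit of the trifunctional protein that runs the last reactions on long chains, read 10.43, 9.75 and 9.90 with OSU-CG5, against 10.35, 10.80 and 10.43 with vehicle. Hadha, its alpha subunit, read 6.91, 6.39 and 6.50 with OSU-CG5, against 6.69, 7.10 and 6.78 with vehicle. For both subunits OSU-CG5 replicates 2 and 3 lay below every vehicle array, while OSU-CG5 replicate 1 lay within the vehicle range. The log2 differences were -0.50 for Hadhb (SE 0.20; limma adjusted p = 0.277) and -0.26 for Hadha (SE 0.17; limma adjusted p = 0.478). Without OSU-CG5 replicate 1 they were -0.70 and -0.41, and without vehicle replicate 2 they were -0.36 and -0.14.

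Hadha and Hadhb lie head to head on mouse chromosome 5, with 273 bases between their starts in RefSeq (GRCm38.p6). The 250 bases before the Hadhb start are shown because this stretch lies before both genes. In their brightest probe sets both were highest on vehicle replicate 2 and lowest on OSU-CG5 replicates 2 and 3. Echs1 and Etfb had the same highest and lowest arrays. Vehicle replicate 2 was highest for 42.2% of members and 38.4% of all genes. A dimmer Hadhb probe set was instead lowest on vehicle replicate 2, at 7.03. The part of this stretch in these values was not tested. The stretch is chr5:30155003-30155252 on the plus strand, read toward Hadhb.
Hadha-Hadhb shared upstream region: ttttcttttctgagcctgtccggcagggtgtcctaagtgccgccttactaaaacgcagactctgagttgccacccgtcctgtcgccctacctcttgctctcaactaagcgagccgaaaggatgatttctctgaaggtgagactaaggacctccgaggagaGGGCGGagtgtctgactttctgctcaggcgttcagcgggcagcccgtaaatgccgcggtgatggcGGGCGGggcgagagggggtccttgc
The capitals mark 2 GC boxes (GGGCGG, searched on both strands), a motif present in 32.7% of all 250-base upstream windows. The CCAAT box (CCAAT, both strands), present in 33.8% of them, had no match here.

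Other enzymes of the same stage lay on either side of 0. Echs1, the short-chain hydratase, read 6.96, 6.45 and 6.45 with OSU-CG5, against 6.80, 7.31 and 6.76 with vehicle, again highest on vehicle replicate 2 and lowest on OSU-CG5 replicates 2 and 3. Hadh, a short-chain dehydrogenase, and Acaa2, the mitochondrial thiolase, differed by -0.07 and 0.22. Etfb, the beta subunit of electron transfer flavoprotein, read 10.31, 10.09 and 10.10 with OSU-CG5, against 10.33, 10.66 and 10.44 with vehicle (log2 difference -0.31, SE 0.13; limma adjusted p = 0.298). Its groups did not overlap, and the difference was -0.22 without vehicle replicate 2. The alpha subunit Etfa and the ubiquinone oxidoreductase Etfdh, which takes the electrons onward, differed by 0.01 and 0.08.

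The auxiliary enzymes that handle double bonds gave the only member with all OSU-CG5 arrays above all vehicle arrays. Eci1, a mitochondrial enoyl-CoA isomerase, read 10.66, 10.53 and 10.52 with OSU-CG5, against 10.37, 10.48 and 10.38 with vehicle. The log2 difference was 0.16 (SE 0.11; limma adjusted p = 0.488). Eci2, Ech1 and the dienoyl-CoA reductase Decr1 differed by 0.09, -0.16 and -0.22.

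Peroxisomal genes diverged in direction. Acaa1a, the peroxisomal thiolase, read 7.73, 7.89 and 7.86 with OSU-CG5, against 8.23, 8.45 and 8.16 with vehicle. The groups did not overlap. The log2 difference was -0.45 (SE 0.13; limma adjusted p = 0.183), and -0.61 in its other probe set. Acaa1a had an unadjusted p under 0.05 in 17 of 17 alternative settings, which share arrays and are not independent, and an adjusted p under 0.05 in none. Both of its probe sets carry the suffix of a kind that can bind related transcripts, and its near copy Acaa1b differed by -0.26, so the value may mix these genes. Decr2, the peroxisomal dienoyl-CoA reductase, read 4.92, 4.81 and 4.71 with OSU-CG5, against 5.29, 5.76 and 4.95 with vehicle (log2 difference -0.52, SE 0.20; limma adjusted p = 0.257). Its groups did not overlap, but without vehicle replicate 2 the difference was -0.31 (limma adjusted p = 0.353). The mean signal of Decr2, 5.07, lay below the median over all probe sets (5.30 to 5.38 by array).

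Ehhadh, the bifunctional enzyme of the inducible peroxisomal route and a PPAR alpha target in rodent liver, leaned the other way. It read 7.78, 7.35 and 7.52 with OSU-CG5, against 6.86, 7.61 and 6.90 with vehicle. Vehicle replicate 2 alone reached the OSU-CG5 range. The log2 difference was 0.42 (SE 0.21; limma adjusted p = 0.361), and 0.67 without vehicle replicate 2 (limma adjusted p = 0.0738). Hsd17b4, the second bifunctional enzyme, and the oxidases Acox2 and Acox3 differed by 0.11, -0.19 and 0.08.

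**Figure D4:**
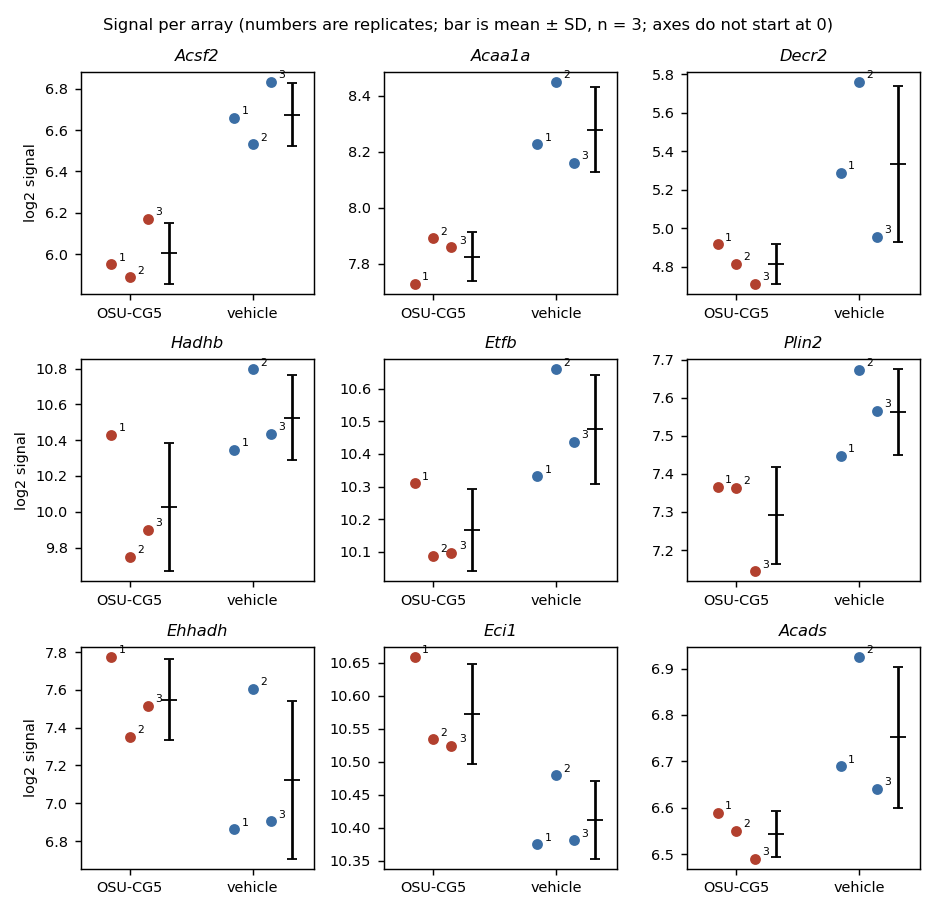
Log2 signal on each array for 9 members, with replicate numbers beside the points and the mean ± SD of 3 arrays as bars. Acsf2, Acaa1a, Decr2, Etfb, Plin2 and Acads show no overlap with OSU-CG5 below vehicle, Eci1 none with OSU-CG5 above, and for Ehhadh vehicle replicate 2 reaches the OSU-CG5 points.

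The thioesterases, which release free fatty acids from coenzyme A, did not pass the test. Acot1, the cytosolic form and a PPAR alpha target in mouse liver, read 8.39, 7.99 and 8.43 with OSU-CG5, against 8.20, 8.75 and 9.11 with vehicle. The groups overlapped, and the log2 difference was -0.41 (SE 0.23; limma adjusted p = 0.402). Leaving out vehicle replicate 1 gave a difference of -0.66 with an unadjusted p under 0.05 (limma adjusted p = 0.295), and leaving out vehicle replicate 3 gave -0.20. Acot2 and Acot7 differed by -0.07 and -0.08.

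Several members gave different answers from different probe sets. Of 45 members 25 had more than 1 probe set, and in 13 of these the brightest and the next brightest differed from vehicle in the same direction. At the unadjusted threshold, 5 of the 38 other probe sets read lower and 1 read higher, beside 6.48% and 9.47% of all such secondary probe sets. Scp2 encodes a sterol carrier and, from another promoter, a peroxisomal thiolase fused to it. Its brightest probe set read 11.40, 10.98 and 11.00 with OSU-CG5, against 11.15, 11.02 and 10.97 with vehicle. A dimmer one read 6.89, 7.18 and 6.90 with OSU-CG5, against 7.79, 7.73 and 7.70 with vehicle, and its groups did not overlap. Its log2 difference was -0.75 (SE 0.12; limma adjusted p = 0.125), and those of the remaining Scp2 probe sets were -0.32 and -0.46. A further Hadhb probe set read 7.97, 7.90 and 7.69 with OSU-CG5, against 7.56, 7.03 and 7.45 with vehicle. That difference, 0.51 (SE 0.16; limma adjusted p = 0.214), ran against the 2 brighter Hadhb probe sets at -0.50 and -0.40. Which transcripts each probe set reads was not tested.

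**Figure D5:**
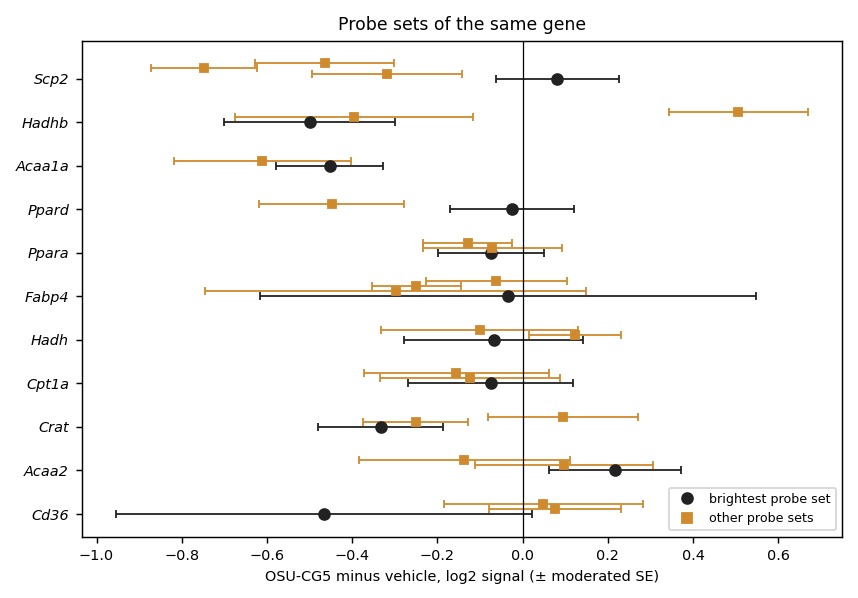
Log2 difference with its moderated SE for every probe set of 11 members, black for the brightest and orange for the others. Scp2, Hadhb, Ppard, Cd36 and Crat show orange points more than 0.4 away from the black one, while the probe sets of Ppara and Cpt1a lie close together.

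Other genes of the pathway, listed as transporters, peroxisomal enzymes and PPAR partners, were read in the same way. At an unadjusted p under 0.05, 3 of 39 other oxidation genes read lower (7.69%, beside 8.43% of all genes) and 1 read higher (2.56%, beside 5.4%), with a median log2 difference of -0.10 beside -0.09 over all genes. Slc25a20, which carries acylcarnitines through the inner mitochondrial membrane, read 9.02, 8.89 and 8.98 with OSU-CG5, against 9.25, 9.59 and 9.05 with vehicle (log2 difference -0.34; limma adjusted p = 0.320). Of 27 other PPAR partners and targets, 6 read lower (22.2%, beside 8.43% of all genes) and 2 higher (7.41%, beside 5.4%), with a median log2 difference of -0.12. The OSU-CG5 arrays lay wholly below the vehicle arrays for 10 of them (37.0%, beside 14.2% of all genes) and wholly above for 2 (7.41%, beside 8.1%). Of 4 measured ketone body genes, none was past the unadjusted threshold in either direction. No gene of these lists passed the adjusted threshold.

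Among the PPAR partners, Pparg, which encodes the PPAR receptor that drives adipocyte formation, read 4.71, 4.68 and 4.82 with OSU-CG5, against 5.15, 5.33 and 5.01 with vehicle (log2 difference -0.43, SE 0.13; limma adjusted p = 0.193). Pltp, a phospholipid transfer protein, read 7.21, 7.36 and 7.32 with OSU-CG5, against 7.71, 7.85 and 8.29 with vehicle (log2 difference -0.65, SE 0.16; limma adjusted p = 0.168). Neither gene's groups overlapped. Pparg had only 1 probe set, and its mean signal, 4.95, lay below the median over all probe sets (5.30 to 5.38 by array). Ppargc1a, the coactivator PGC-1 alpha, read 6.86, 7.12 and 7.26 with OSU-CG5, against 6.52, 6.52 and 6.92 with vehicle, so that its groups overlapped by 1 array. Its log2 difference was 0.43 (SE 0.16; limma adjusted p = 0.257). Rxra, an RXR partner, differed by -0.03.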

How the data were processed

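The authors deposited log2 expression values per probe set for 6 arrays, 1 per mouse, made by RMA per the submitters' processing notes, with the software and its version not given in the sources used here. RMA gives the probe intensities of all arrays a shared distribution before probe sets are summarized, so a broad shift in 1 direction is partly removed. The deposited probe set values still differed between arrays, with medians of 5.30 to 5.38. Per the labels' protocols, biotinylated cRNA was made from 2 ug of Trizol-extracted total RNA. Groups came from each sample's source label, since some free-text descriptions carry another compound number. Of 45037 probe sets besides 64 controls, 34945 had 1 symbol, 932 several and 9160 none in the platform annotation.

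OSU-CG5 minus vehicle was tested with limma 3.58.1 (R 4.3.3; lmFit and eBayes, no filter), with Benjamini-Hochberg adjustment over 45037 probe sets at 0.05. The procedure was tested on simulated data. SE is the moderated standard error. No detection calls were used, and signal of different probe sets was not compared. The number of arrays, 3 per group, limits the precision. Members, gene lists, markers and settings were chosen with earlier results of these data known. Array values were given for members with an unadjusted p under 0.05, the smallest p of each role group and a list of classic targets, and for others chosen after their values were seen (Fabp4, Echs1, Scp2 and secondary probe sets). Other pathway genes were named at an unadjusted p under 0.01 or from a set list.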

Additional observations from a re-analysis of the deposited data

How the results depend on the processing

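No member passed limma's adjusted threshold except Acsf2, which gave 1 call with array weights and 1 without vehicle replicate 2; over settings that left out 1 array the count ran from 0 to 1. Over all genes that threshold was passed by 121 with array weights, 32 without vehicle replicate 2 and 91 without vehicle replicate 3, and by none in the other settings. The members' median log2 difference lay between -0.10 and -0.07 with all arrays and between -0.13 and -0.01 with 1 array left out, below 0 throughout. The median over all genes was below 0 throughout as well, between -0.09 and -0.02 and between -0.11 and -0.05. The members' median minus that of all genes changed sign, from -0.05 (minimum of log2 6) to 0.04 (without vehicle replicate 2). Members lower at an unadjusted p under 0.05, 5 as reported, numbered 3 with probe sets of mean log2 at least 6 only (10 members dropped out; 5.69% of all genes read lower), 2 without moderation (7.24%), 8 with repeated quantile normalization (11.3%) and 8 with array weights (11.2%). Members higher, 0 as reported, numbered 1 with cyclic loess (5.07% of all genes), 1 without moderation (4.49%) and 2 with array weights (7.17%). With 1 array left out, those lower ran from 2 (without OSU-CG5 replicate 2, beside 5.33% of all genes, and without OSU-CG5 replicate 3, beside 4.16%) to 8 (without OSU-CG5 replicate 1, beside 6.62%), and those higher from 0 to 2 (without vehicle replicate 2, beside 6.07%). Fewer arrays overlap less often by construction: members wholly below vehicle ran from 7 to 14 (without OSU-CG5 replicate 1, beside 22.4% of all genes; 11 without vehicle replicate 3, beside 26.9%), and those wholly above from 1 to 5 (without vehicle replicate 2, beside 14.2%). Those wholly above numbered 2 with the brightest probe set lacking a suffix of s, x or a (8.38% of all genes).

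Other pathway genes came from lists of 39, 27 and 4 measured genes, with a shared gene counted in each. Those that read lower, 9 in the main setting, numbered 5 with the minimum of log2 6, where fewer genes were measured, and 16 with repeated quantile normalization (the shares of all genes are those above). They ran from 2 to 13 with 1 array left out, where 4.16% to 11.7% of all genes read lower. Those that read higher, 3 in the main setting, numbered 1 with repeated quantile normalization (3.78% of all genes) and 6 with array weights. With 1 array left out they ran from 0 to 6, where 3.13% to 6.32% of all genes read higher. Of the 19 members whose array values were given by rule, 14 kept their sign in every alternative that gave a value; Fabp4, Echs1 and Scp2 were not among them. Ppara was 7.31e-06 with cyclic loess; Ppard was 0.046 with cyclic loess, 0.034 with array weights, and -0.14 to 0.067 with 1 array left out; Cpt1a was -0.20 to 0.11 with 1 array left out. With probe sets lacking those suffixes Cd36 was 0.076 and Angptl4 0.013. The causes were not tested. No paired analysis was possible because the labels number mice without linking them across groups.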
